A study of Mus musculus with 8 samples.

Results

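Simple epithelial keratins are the intermediate filament proteins of single-layered epithelia. They are described here across E9.5 mouse hearts through 4 genes, Krt7, Krt8, Krt18 and Krt19, with Vim, which encodes the mesenchymal filament protein vimentin, set beside them. The members were listed by symbol, and each symbol was matched to an Ensembl gene of GENCODE M21. All 5 were present among the 13637 genes of the table. They were chosen by their normalized reads in GOF against WT hearts, which were already known, so their levels and changes are given as a description and carry no test.

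The series measured polyA RNA by RNA-seq. By its title the work concerns Bmp2 and Notch signals in patterning of the endocardium, which lines the heart chambers. The 4 GOF samples were hearts of the genotype Bmp2GOF;Nkx2.5-Cre, which joins a Bmp2 gain-of-function allele to a Cre driven from Nkx2.5, a gene active in heart progenitor cells and, at this stage, in some pharyngeal tissue nearby. The 4 WT samples were wild-type hearts, and both groups were taken at E9.5. The labels give neither litter nor sex, and do not say whether a sample was 1 embryo or a pool, so the errors below hold for these samples and may be partly technical.

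Keratins form filaments only as pairs, a type I chain with a type II chain. Krt8 (type II) and Krt18 (type I) are the first pair made in the mouse embryo and are the main pair of simple epithelia. Krt7 is a further type II chain of ducts and mesothelium, and Krt19 is a small type I chain that lacks most of the tail domain and can pair with either. In the developing heart region simple keratins are known from the pharyngeal and foregut epithelium, from the proepicardium and epicardium, and at lower levels from early heart muscle. Vimentin, a type III filament protein, assembles with itself and is abundant in mesenchyme and endothelium.

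Levels are given in normalized reads, the scale of the deposited values. Reads implied by the table summed to between 13182009 and 17927674 in GOF samples and between 12287069 and 16697480 in WT samples. Bmp2 averaged 99.1 ± 7.21 in GOF and 56.3 ± 5.46 in WT (SD, n = 4 each), and the groups did not overlap. The 12 markers of cardiac muscle summed to 37204 to 43750 in GOF and 35733 to 40215 in WT. Single markers went both ways. At a limma adjusted p under 0.05, 4 were higher, 3 lower and 5 did not pass, beside 28.2% each way over all genes. Myh7 averaged 11765 in GOF and 7672 in WT, while Myl2 averaged 1283 in GOF and 1689 in WT. Markers of embryonic red cells varied far more between samples, with sums of 2444 to 13651 in GOF and 2397 to 6785 in WT. In the limma fit across all genes 28.2% of genes were higher and 28.2% lower in GOF at an adjusted p under 0.05, 25.6% had every GOF sample above every WT sample and 25.3% every GOF sample below. All 5 members were among the genes higher by both measures. Since they were chosen for this contrast, nothing is read from that count.

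The Krt8 and Krt18 genes lie next to each other and point apart, with a gap of 23.7 kb. Krt8 (ENSMUSG00000049382) lies on the minus strand of chromosome 15, from 101996698 to 102004482, and Krt18 (ENSMUSG00000023043) on the plus strand from 102028180 to 102032027 (GRCm38). Krt7 (ENSMUSG00000023039), on the plus strand from 101411043 to 101430313, lies near the other end of the same cluster of type II keratin genes, with Krt80 beyond it. Krt18 is the only type I keratin gene in that cluster. The start regions of these 3 genes are shown because the genes share a cluster and 2 of them neighbour each other. Each window is from RefSeq on GRCm38.p6, with 250 bases before the annotated start and 50 after it, written 5′ to 3′ on the strand of the gene. The annotated start is that of RefSeq, which for each of these 3 genes lies inside the GENCODE span given above. The windows are chr15:102004293-102004592 (minus strand) for Krt8, chr15:102027966-102028265 (plus strand) for Krt18 and chr15:101412153-101412452 (plus strand) for Krt7. Capitals mark the letters of any of 7 short motifs found on either strand.
Krt8: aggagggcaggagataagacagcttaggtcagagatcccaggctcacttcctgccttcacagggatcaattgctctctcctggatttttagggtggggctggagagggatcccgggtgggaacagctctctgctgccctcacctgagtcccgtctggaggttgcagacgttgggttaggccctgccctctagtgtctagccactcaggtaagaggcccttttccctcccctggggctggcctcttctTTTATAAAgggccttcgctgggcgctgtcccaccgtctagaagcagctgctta
Krt18: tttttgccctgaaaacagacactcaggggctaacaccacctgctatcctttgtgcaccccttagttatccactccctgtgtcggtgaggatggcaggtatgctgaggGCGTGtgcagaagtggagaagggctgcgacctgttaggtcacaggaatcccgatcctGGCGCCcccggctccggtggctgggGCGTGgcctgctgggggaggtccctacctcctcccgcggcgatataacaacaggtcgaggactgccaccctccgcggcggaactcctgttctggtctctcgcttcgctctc
Krt7: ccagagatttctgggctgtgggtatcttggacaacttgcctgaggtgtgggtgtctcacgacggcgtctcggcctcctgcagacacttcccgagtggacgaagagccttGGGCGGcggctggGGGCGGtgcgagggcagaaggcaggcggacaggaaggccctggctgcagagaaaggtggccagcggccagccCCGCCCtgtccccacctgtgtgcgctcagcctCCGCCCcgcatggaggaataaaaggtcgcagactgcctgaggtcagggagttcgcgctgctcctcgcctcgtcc

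The motifs searched were TATAAA (the TATA box), GGGCGG (the Sp1 box), TGANTCA (AP-1), ACGTG and GCGTG (forms of the hypoxia response core), GGCGCC (a BMP-Smad element) and GGAATG (TEAD). The window of Krt8 holds TATAAA on both strands in overlapping letters, from positions -3 and -1 counted with the annotated start as 0, and none of the other 6. These letters run across the annotated start itself. The window of Krt18 holds GCGTG at -143 and -61 and GGCGCC at -86. The window of Krt7 holds 4 copies of GGGCGG, at -141 and -128 on its own strand and at -56 and -24 on the opposite one. Neither TGANTCA nor ACGTG nor GGAATG is in these 3 windows. Of the 32851 windows in the RefSeq table, 13.6% hold TATAAA, 35.7% GGGCGG, 32.4% GCGTG and 11.9% GGCGCC, while 7.81% hold TGANTCA, 19.6% ACGTG and 14.7% GGAATG. The 3 windows share none of the 7 motifs. Their content of G and C was 58.0% for Krt8, 61.3% for Krt18 and 66.3% for Krt7, against a median of 52.7% over all windows. A window was matched for 4 of the 5 members, all except Krt19.

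Krt8, the type II chain of the founding pair, was at 223, 169, 236 and 223 normalized reads in GOF samples 1 to 4, and at 115, 96.5, 105 and 92.7 in WT samples 1 to 4. The groups did not overlap, and GOF sample 2 was the lowest of its group. The mean was 213 ± 29.7 in GOF and 102 ± 9.80 in WT (SD, n = 4 each), a ratio of 2.08. On the log2(value + 1) scale the change was 1.04 with a standard error of 0.11. In whole hearts a higher share of cells that make a filament and more of its RNA per cell cannot be told apart, for these genes and for every marker below.

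Krt18, its type I partner, was at 123, 89.2, 135 and 130 normalized reads in GOF samples 1 to 4, and at 59.6, 46.5, 48.9 and 50.5 in WT samples 1 to 4. GOF sample 2 was again the lowest of its group and still above every WT sample. The mean was 119 ± 20.5 in GOF and 51.4 ± 5.75 in WT (SD, n = 4 each), a ratio of 2.32 and a log2 change of 1.18 with a standard error of 0.14. Both partners therefore had the same low library among the GOF samples and the same high library, sample 3, while WT sample 1 was the highest WT library for both.

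Krt19 (ENSMUSG00000020911, minus strand of chromosome 11, 100140810 to 100148665, GRCm38) differed most. It was at 499.6, 561, 643 and 586 normalized reads in GOF samples 1 to 4, and at 77.3, 62.9, 75.0 and 69.8 in WT samples 1 to 4. The lowest GOF sample was 6.47 times the highest WT sample. The mean was 573 ± 59.5 in GOF and 71.3 ± 6.37 in WT (SD, n = 4 each), a ratio of 8.04 and a log2 change of 2.99 with a standard error of 0.08. Counted down from the largest rise in log2 value, Krt19 ranked 30 among the 13637 genes, and by mean level it ranked 223 in GOF and 3209 in WT. Unlike the founding pair, Krt19 was lowest among GOF samples in sample 1, not in sample 2.

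Krt7, the second type II chain, was the lowest of the 5. It was at 6.01, 10.7, 10.2 and 9.18 normalized reads in GOF samples 1 to 4, and at 4.52, 4.99, 4.48 and 5.32 in WT samples 1 to 4. These levels rest on 88 to 188 reads per GOF library and 55 to 79 per WT library. GOF sample 1 was 1.13 times the highest WT sample, close to overlap, and the other GOF samples lay well clear. The mean was 9.03 ± 2.11 in GOF and 4.83 ± 0.402 in WT (SD, n = 4 each), and the log2 change of 0.76 had a standard error of 0.14. Leaving out GOF sample 1 gave 0.92, and leaving out GOF sample 2 gave 0.67.

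Vim (ENSMUSG00000026728, plus strand of chromosome 2, 13573927 to 13582826, GRCm38) was at 1227, 1352, 1344 and 1269 normalized reads in GOF samples 1 to 4, and at 858, 906, 873 and 863 in WT samples 1 to 4. The spread within each group was narrow and the groups lay apart. The mean was 1298 ± 60.3 in GOF and 875 ± 21.5 in WT (SD, n = 4 each), a ratio of 1.48 and the smallest log2 change of the 5, 0.57 with a standard error of 0.04. The plot of each member by sample shows these values.

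**Figure D1:**
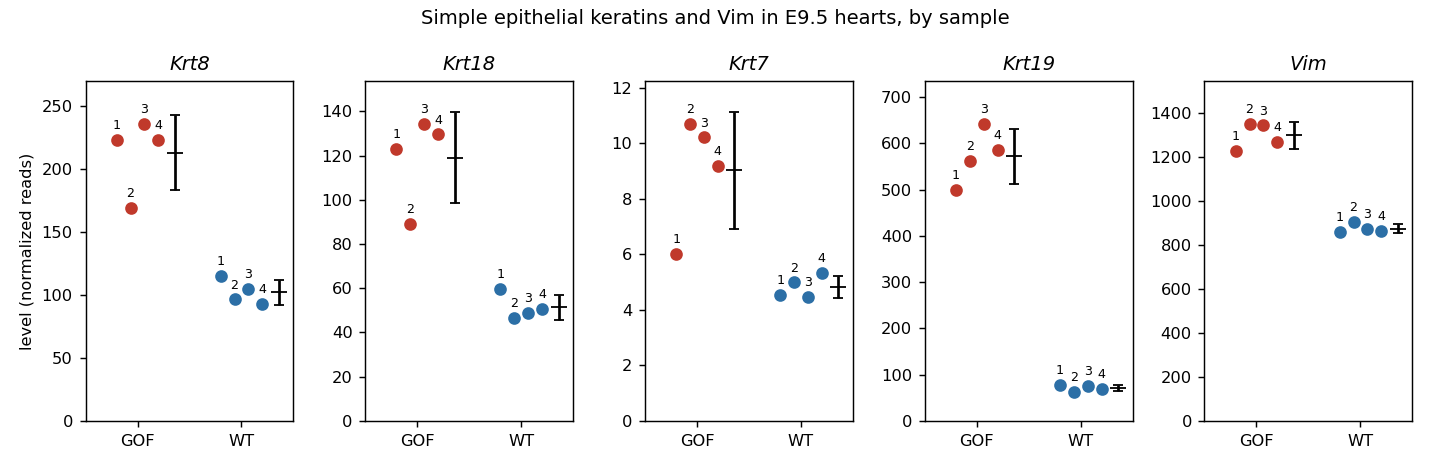
Level of each member in normalized reads (y axis, from 0) in the 4 GOF (red) and 4 WT (blue) samples. Numbers give the sample, and the black mark beside each group is its mean with SD. All 5 genes had every GOF sample above every WT sample, and Krt19 stood 8.04 times higher by the group means.

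The levels of different genes were compared per kilobase of the longest GENCODE transcript marked as principal. It is 4094 bases long for Krt7, 1958 for Krt8, 1437 for Krt18, 1576 for Krt19 and 2193 for Vim. Which transcripts were made is not known from these values, so levels per kilobase, such as that of Krt7, depend on this choice. On that scale the order in GOF was Vim at 592 ± 27.5, Krt19 at 363 ± 37.7, Krt8 at 109 ± 15.2, Krt18 at 82.8 ± 14.3 and Krt7 at 2.20 ± 0.515 normalized reads per kilobase (SD, n = 4). In WT it was Vim at 399 ± 9.82, Krt8 at 52.2 ± 5.01, Krt19 at 45.2 ± 4.04, Krt18 at 35.8 ± 4.001 and Krt7 at 1.18 ± 0.0982 (SD, n = 4). Krt19 was thus above Krt8 in each GOF sample, 2.78 to 4.12 times per kilobase, and below it in each WT sample, 0.810 to 0.935 times. The WT ranges of Krt8 and Krt19 overlapped across samples, as did those of Krt19 and Krt18 in WT and those of Krt8 and Krt18 in GOF. The remaining neighbours in either order lay apart.

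The ratio of Krt8 to Krt18 per kilobase was 1.32 ± 0.0571 in GOF and 1.46 ± 0.102 in WT (SD, n = 4 each), and the groups overlapped. The levels of both partners lay apart between the groups, but the proportion of 1 to the other did not. That overlap came only from GOF sample 2, at 1.39, lying above WT sample 4, at 1.35. Krt19 made up 81.4% ± 2.71 of the type I reads per kilobase of the 4 simple keratins in GOF and 55.9% ± 1.77 in WT (SD, n = 4 each), without overlap. Over every keratin in the table, the ratio of type I to type II chains per kilobase was 3.54, 4.77, 4.13 and 4.04 in GOF samples 1 to 4, and 1.63, 1.56, 1.63 and 1.76 in WT samples 1 to 4. Type I transcripts were in excess in all 8 samples, and more so in each GOF sample than in any WT sample. Krt7 was 2.04% ± 0.685 of the type II reads per kilobase in GOF and 2.23% ± 0.376 in WT (SD, n = 4 each), with overlap. Set against Vim, the 4 keratins together came to 0.942 ± 0.0891 of its level per kilobase in GOF and 0.337 ± 0.0363 in WT (SD, n = 4 each). The plot of keratin levels per kilobase shows both the sums and the ratio.

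**Figure D2:**
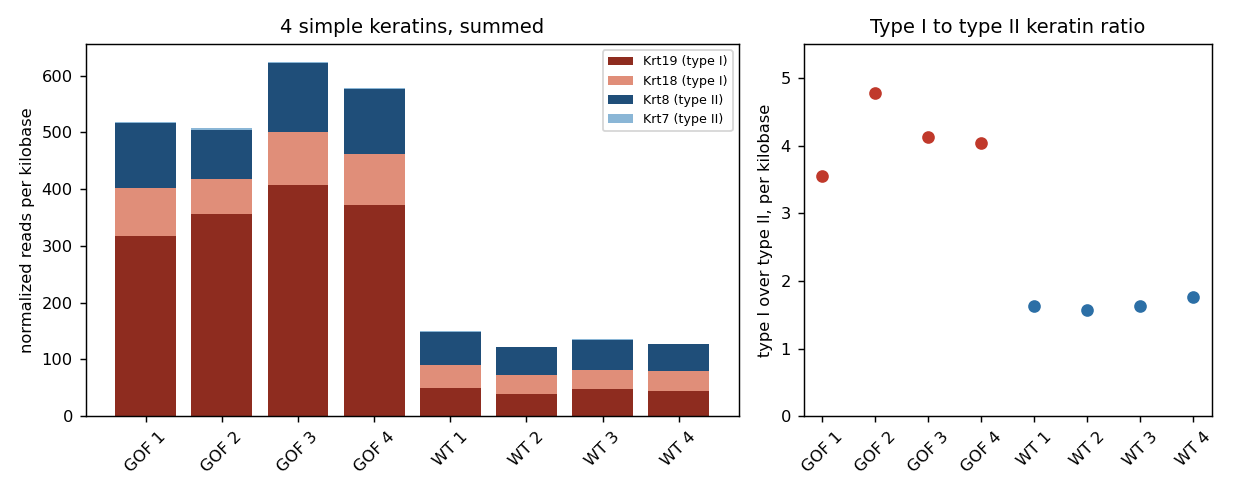
Left, normalized reads per kilobase of Krt19, Krt18, Krt8 and Krt7 stacked for each GOF and WT sample. Right, the ratio of type I to type II keratin reads per kilobase over every keratin in the table, by sample, with GOF in red (3.54 to 4.77) and WT in blue (1.56 to 1.76). Most of the height added in GOF is Krt19.

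GENCODE M21 annotates 53 protein-coding keratin genes, 27 on chromosome 11 and 26 on chromosome 15, and 6 of them were in the table, 3 on each chromosome. Beside the 4 simple keratins these were Krt10, a type I chain of skin, and Krt20, a type I chain of gut and urinary epithelium. Krt10 averaged 2.77 ± 0.571 in GOF and 3.48 ± 0.213 in WT, and Krt20 averaged 10.5 ± 0.777 in GOF and 10.03 ± 1.07 in WT (SD, n = 4 each). Neither passed in the limma fit, with log2 changes of -0.26 (95% interval -0.54 to 0.02) and 0.06 (-0.14 to 0.26). None of the 24 other type II keratins on the list was in the table. Of the 2 other keratins 0 were called by limma and 0 had an unadjusted p under 0.05, but without GOF sample 2 Krt10 was called lower (-0.35, limma adjusted p = 0.0365).

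Position was described with the nearest measured protein-coding genes on each side, which were looked up after the member values were seen. Beyond Krt18 lies Eif4b, a translation initiation factor gene, 41.746 kb away, which rose by 0.60 (log2, SE 0.04, limma adjusted p = 3.03e-09). Beyond Krt19 lies Eif1, also an initiation factor gene, 171 kb away, which rose by 0.33 (SE 0.04, limma adjusted p = 3.92e-06), and on its other side Krt20. Atg101, an autophagy gene 120 kb before Krt7, had a log2 change of -0.09 that did not pass (limma adjusted p = 0.309). Vim lies between Trdmt1, an RNA methyltransferase gene (-0.12, limma adjusted p = 0.328), and Hacd1, a fatty acid elongation gene that rose by 0.29 (limma adjusted p = 0.000223). The antisense gene Gm671 overlaps Krt7 and the lincRNA Gm36026 overlaps Krt8. Neither was in the table, nor was the processed pseudogene Krt8-ps, and the labels do not say whether strand was kept, so reads they may share with the keratin genes cannot be assigned from these values.

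The other filament genes moved in both directions. Of 12 measured genes outside the keratins, 4 rose, 4 fell and 4 did not pass. Their median log2 change was -0.08 beside -0.002 over all genes and the shares of 28.2% higher and 28.2% lower given above. Des, the desmin gene, the muscle counterpart of Vim, fell to 575 ± 40.2 in GOF, against 728 ± 34.4 in WT (SD, n = 4 each, log2 change -0.34, limma adjusted p = 5.05e-05). The ratio of Vim to Des per kilobase was 3.13 ± 0.238 in GOF and 1.66 ± 0.0995 in WT (SD, n = 4 each). Synm, the synemin gene, whose product joins desmin and vimentin filaments, rose by 0.63 (limma adjusted p = 1.20e-05). The lamin A gene Lmna rose by 0.51 (limma adjusted p = 1.90e-05), while the lamin B2 gene Lmnb2 changed by -0.43 (limma adjusted p = 6.34e-06). Among neurofilament genes Nefh averaged 4.23 ± 0.704 in GOF and 1.13 ± 0.318 in WT, and Nefl averaged 6.36 ± 0.517 in GOF and 9.03 ± 0.633 in WT (SD, n = 4 each), so they went opposite ways (log2 changes 1.30 and -0.45, limma adjusted p = 2.84e-06 and 0.000997).

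**Figure D3:**
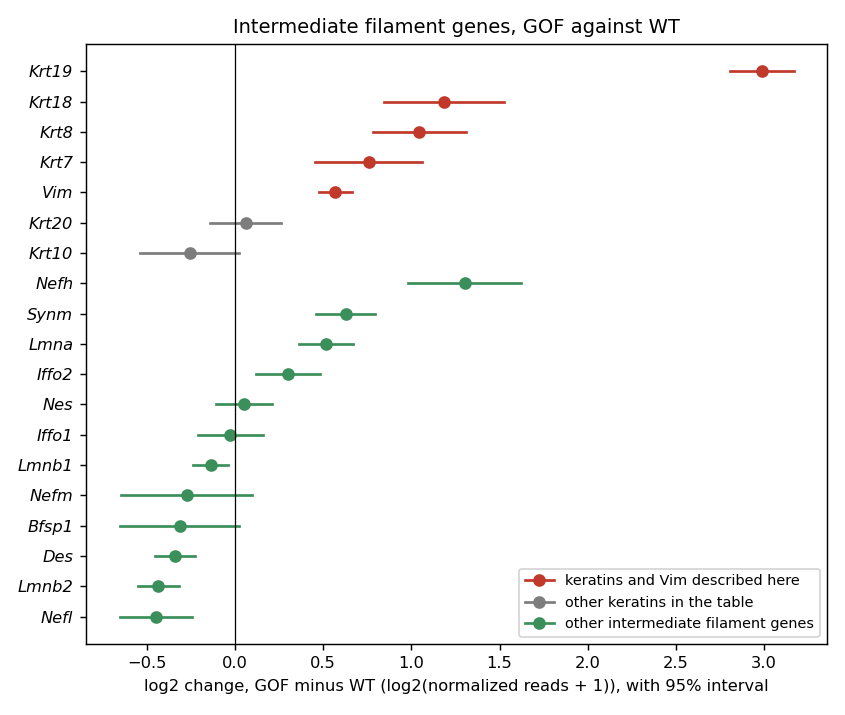
Log2 change between GOF and WT of the members (red), the other keratins (grey) and the other intermediate filament genes (green), with 95% intervals from limma (x axis, log2(normalized reads + 1) scale). Krt19 lies at 2.99, apart from every other gene shown, and Des, Lmnb2 and Nefl lie below 0.

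Desmosomes and plakins tie intermediate filaments to the cell surface. Of 12 measured genes of this kind 5 rose, 2 fell and 5 did not pass (median log2 change 0.24), where 28.2% of all genes rose and 28.2% fell. The plaque genes Pkp2 (plakophilin 2) and Jup (plakoglobin) rose by 0.52 and 0.47 (limma adjusted p = 1.04e-07 and 2.72e-07). Dst, which encodes the linker dystonin, averaged 297 ± 43.0 in GOF and 169 ± 9.55 in WT (SD, n = 4 each, log2 change 0.80, limma adjusted p = 8.69e-05). Dsp, the desmoplakin gene, which binds both keratin and desmin filaments, rose by 0.27 with overlapping groups (limma adjusted p = 0.00223), and Perp, a desmosome gene of epithelia, by 0.34 (limma adjusted p = 0.000775). Dsc2, a desmosomal cadherin gene, fell to 34.3 ± 2.90 in GOF, against 77.1 ± 3.31 in WT (SD, n = 4 each, log2 change -1.15, limma adjusted p = 3.72e-10), and Pkp4 changed by -0.29 (limma adjusted p = 0.000148). Plec, the plectin gene, had a change of 0.20 that did not pass (limma adjusted p = 0.103), but passed once GOF sample 1 was left out (0.29, limma adjusted p = 0.0026), and likewise with WT sample 4 left out (0.26, limma adjusted p = 0.0396).

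Epithelial markers were measured because keratins can also come from epithelium attached to the heart. Of 32 listed 21 were in the table, and 7 rose, 0 fell and 14 did not pass in the limma fit (0 were lower at an unadjusted p under 0.05), with a median log2 change of 0.29. With 28.2% of all genes higher in GOF, a count of 7 in 21 is close to the share over all genes. Their summed level was 226 to 276 normalized reads in GOF and 171 to 217 in WT. Much of it was Llgl2 (means 93.5 in GOF and 80.6 in WT) and Pard6b (49.5 in GOF and 41.1 in WT). Of the 16 markers with a mean under 10 over the 8 samples, 2 were higher and 0 lower in GOF. Grhl1, an epithelial transcription factor gene, rose most, to 34.8 ± 5.13 in GOF, against 13.1 ± 1.34 in WT (SD, n = 4 each, log2 change 1.33, limma adjusted p = 6.78e-08). The protease inhibitor gene Spint2 rose by 0.77 (limma adjusted p = 0.00668), the tricellular junction gene Lsr by 0.48 (limma adjusted p = 0.000912), the polarity genes Pard6b by 0.27 (limma adjusted p = 0.0019) and Llgl2 by 0.21 (limma adjusted p = 0.00156), and the splicing factor gene Esrp2 by 0.40 (limma adjusted p = 0.0177). Esrp2 no longer passed when WT sample 1 was left out (0.34, limma adjusted p = 0.0567).

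Epcam and Cdh1, the defining epithelial adhesion genes, ranged widely between libraries within each genotype. Epcam was at 5.40, 0.483, 5.58 and 3.61 normalized reads in GOF samples 1 to 4, and at 4.64, 2.35, 0.444 and 7.23 in WT samples 1 to 4. Cdh1, the E-cadherin gene, was at 4.92, 0.937, 6.89 and 5.60 in GOF samples 1 to 4, and at 6.30, 1.60, 0.0404 and 5.25 in WT samples 1 to 4, where 0.0404 stands for 0 reads and allows up to 0.242. The groups overlapped for both genes, and the log2 changes of 0.09 (95% interval -1.68 to 1.86) and 0.57 (-1.33 to 2.47) did not pass (limma adjusted p = 0.93 and 0.577). Of the 21 epithelial markers, 18 had their lowest GOF level in sample 2 and 14 their lowest WT level in sample 3. The share of all genes lowest in these samples was not counted, so these counts are a description. Krt8 and Krt18 were also lowest in GOF sample 2 within their group, and Krt7 was lowest in WT sample 3 within its group. Krt19 in GOF sample 2 and Krt8, Krt18 and Krt19 in WT sample 3 were not the lowest of their groups.

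In these libraries, where Epcam rested on 8 reads in GOF sample 2 and 5 in WT sample 3, Krt19 was at 561 in GOF sample 2 and 75.0 in WT sample 3. Krt8 was at 169 in GOF sample 2 and 105 in WT sample 3, and Krt18 at 89.2 in GOF sample 2 and 48.9 in WT sample 3. The changes with the log2 level of Epcam as a covariate, chosen after the data were seen, were 2.99 for Krt19, 1.04 for Krt8, 1.17 for Krt18, 0.76 for Krt7 and 0.57 for Vim. Epcam itself differed little between the groups (log2 change 0.09), so this covariate could move these values only little. Whether attached epithelium took part in the keratin changes was not tested. Leaving out both libraries, also chosen afterwards, gave 3.02 for Krt19, 1.16 for Krt8, 1.30 for Krt18, 0.64 for Krt7 and 0.55 for Vim. The plot of keratins beside markers sets these levels next to each other.

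**Figure D4:**
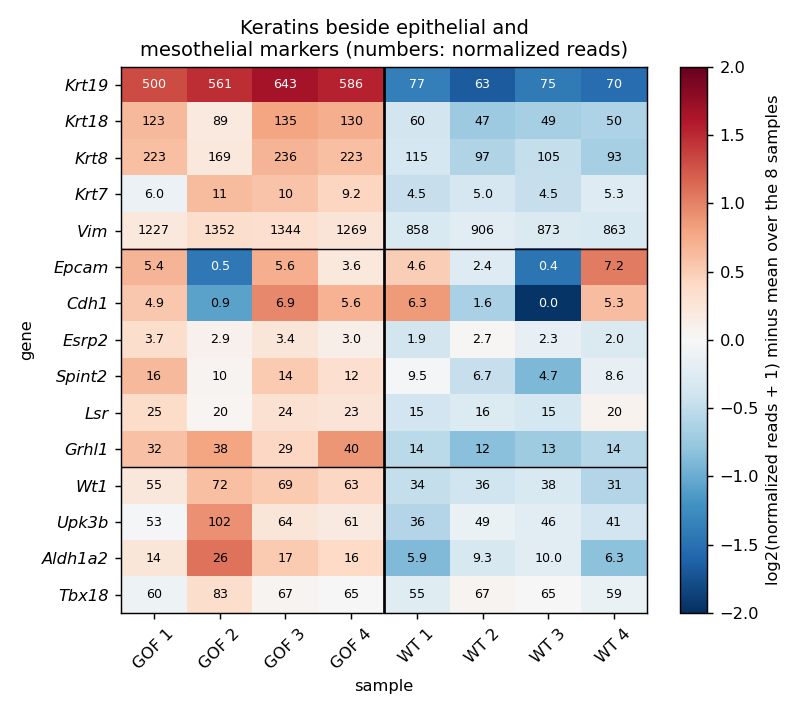
Members (top), epithelial markers (middle) and mesothelial or epicardial markers (bottom) in each GOF and WT sample. Colour is log2(normalized reads + 1) minus the mean of the gene over the 8 samples, and the numbers are normalized reads. Epcam and Cdh1 are low in GOF sample 2 and WT sample 3. The 5 members, chosen for this contrast, have every GOF sample above every WT sample. The same holds for Esrp2, Spint2, Grhl1, Wt1, Upk3b and Aldh1a2, and for 25.6% of all genes.

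The mesothelium, the epithelium of body cavities that gives rise to the proepicardium and epicardium, is another keratin-bearing tissue at the heart. Of 13 measured markers 6 rose, 0 fell and 7 did not pass in the limma fit (1 was lower at an unadjusted p under 0.05), with a median log2 change of 0.28 and sums of 875 to 1008 in GOF and 691 to 753 in WT. Most of each sum was Podxl alone (means 578 in GOF and 479 in WT). Over all genes 28.2% rose and 28.2% fell. Lrrn4, a mesothelial surface protein gene named after its values were seen, had a log2 change of -0.39 (limma adjusted p = 0.0614) and was called lower with GOF sample 2 left out (-0.51, limma adjusted p = 0.00551). The same held with WT sample 4 left out (-0.46, limma adjusted p = 0.044). Wt1, a transcription factor gene of mesothelium, was at 55.4, 71.8, 68.6 and 63.0 normalized reads in GOF samples 1 to 4, and at 33.6, 35.6, 38.0 and 31.3 in WT samples 1 to 4. The groups did not overlap (log2 change 0.88, SE 0.08, limma adjusted p = 5.20e-07). The secreted chemerin gene Rarres2 rose by 1.17 (limma adjusted p = 5.06e-06), the retinoic acid synthesis gene Aldh1a2 by 1.12 (limma adjusted p = 0.00265) and Podxl, a cell surface sialomucin gene, by 0.27 (limma adjusted p = 0.00027). Upk3b, a uroplakin gene of mesothelium, averaged 69.9 ± 22.1 in GOF and 42.9 ± 5.88 in WT (SD, n = 4 each, log2 change 0.66, limma adjusted p = 0.0433). It did not pass when GOF sample 3, GOF sample 4 or any 1 of the WT samples was left out (limma adjusted p = 0.0586 to 0.102). Tcf21, a transcription factor gene of epicardium, rose by 0.28 with overlapping groups (limma adjusted p = 0.0146), but with GOF sample 2 left out it did not pass (limma adjusted p = 0.0536). Tbx18, a proepicardial transcription factor gene, had a log2 change of 0.16 (95% interval -0.06 to 0.37) that did not pass. Whether these cells took part in the keratin changes was not tested.

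Endoderm and surface ectoderm are the other epithelia near the heart. Of 20 endoderm markers 8 were in the table, and Foxa2 was not. Of these 8, 3 rose, 0 fell and 5 did not pass in the limma fit (0 were lower at an unadjusted p under 0.05), with a median log2 change of 0.48, beside 28.2% higher and 28.2% lower over all genes. Their sums were 34.7 to 39.4 in GOF and 19.0 to 62.3 in WT and overlapped. The genes that rose were Sox17 (1.42, limma adjusted p = 9.35e-08) and Hhex (0.78, limma adjusted p = 3.08e-05), transcription factor genes also active in endothelium, and the retinol carrier gene Rbp4 (0.83, limma adjusted p = 0.000853). Shh, a signalling gene of foregut endoderm, was at 5.13, 0.0284, 5.66 and 3.40 in GOF samples 1 to 4, and at 0.503, 0.0314, 0.0404 and 1.21 in WT samples 1 to 4. Its values in GOF sample 2, WT sample 2 and WT sample 3 stand for 0 reads. The change of 1.42 for Shh did not pass (limma adjusted p = 0.113) and passed without GOF sample 2, the library low in Epcam (2.04, limma adjusted p = 3.62e-05). Afp, the alpha-fetoprotein gene of liver bud and yolk sac, had the largest change of the list, in the opposite direction. It was at 1.53, 3.38, 0.193 and 1.07 in GOF samples 1 to 4, and at 4.52, 39.5, 1.33 and 6.21 in WT samples 1 to 4, so WT sample 2 accounts for most of the highest WT sum. The groups overlapped, and the log2 change of -1.78 (95% interval -4.04 to 0.49) did not pass (limma adjusted p = 0.156). Of 10 surface ectoderm markers 4 were in the table, without Trp63 or the ectodermal keratins Krt5, Krt14 and Krt15. Perp rose, and the other 3 did not pass (0 lower in the limma fit and 0 lower at an unadjusted p under 0.05). Grhl3, an ectodermal transcription factor gene, averaged 2.41 ± 0.321 in GOF and 3.02 ± 0.178 in WT (SD, n = 4 each), with every GOF value under the WT values. Its log2 change of -0.24 did not pass in the main fit. Grhl3 was called lower with quantile normalization (-0.37, limma adjusted p = 0.0237) or with no trend and no robust prior (-0.24, limma adjusted p = 0.021).

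Mesenchymal genes were set beside Vim. Of 26 measured 15 rose, 3 fell and 8 did not pass (median log2 change 0.35), where 28.2% of all genes rose and 28.2% fell. Their summed level was 7229 to 8956 in GOF and 7527 to 7893 in WT. These sums overlapped, and GOF sample 1 lay below every WT sample. Cdh2, the N-cadherin gene, which is also strong in heart muscle, averaged 603 ± 33.9 in GOF and 433 ± 11.8 in WT (SD, n = 4 each, log2 change 0.47, limma adjusted p = 4.52e-07). The cushion transcription factor genes Sox9 and Twist1 rose by 0.61 and 0.44 (limma adjusted p = 3.12e-06 and 0.000119), and Zeb1 and Snai2, which repress epithelial genes, by 0.39 and 0.83 (limma adjusted p = 1.42e-05 and 3.13e-05). The matrix gene Sparc rose by 0.38 (limma adjusted p = 4.46e-05). The 3 genes that fell, named after their values were seen, were Acta2, Prrx2 and Col5a1. Acta2, the smooth muscle actin gene, which early heart muscle also makes, averaged 2529 ± 172 in GOF and 3007 ± 162 in WT (SD, n = 4 each, log2 change -0.25, limma adjusted p = 0.00114). The homeobox gene Prrx2 changed by -0.23 (limma adjusted p = 0.00859) and the collagen gene Col5a1 by -0.19 (limma adjusted p = 0.027), both with overlapping groups. Leaving out any 1 of GOF samples 1, 3 and 4 and WT samples 3 and 4 ended the call of Col5a1 (limma adjusted p = 0.0587 to 0.0819). Among 10 endothelial markers, whose cells also make vimentin, 3 rose and 5 fell, beside 28.2% in each direction over all genes, with overlapping sums of 846 to 1045 in GOF and 1011 to 1071 in WT. Whether the numbers of mesenchymal or endothelial cells took part in the change of Vim was not tested.

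Transcription factors that are known from cell culture to act on simple keratin genes include the AP-1, Ets, Sp, Klf and Tead families. Of 18 measured genes 10 rose, 2 fell and 6 did not pass (median log2 change 0.37), where 28.2% of all genes rose and 28.2% fell. Without GOF sample 1, or without WT sample 3, 1 fell. The AP-1 genes Fos, Junb and Fosl2 had the largest changes, with Fos averaged 25.1 ± 1.42 in GOF and 5.63 ± 0.414 in WT (SD, n = 4 each, log2 change 1.98, limma adjusted p = 2.38e-11). Junb rose by 1.90 (limma adjusted p = 3.85e-10), Fosl2 by 1.92 (limma adjusted p = 1.74e-09) and Jun by 0.50 (limma adjusted p = 3.02e-06). Klf6 rose by 1.02 (limma adjusted p = 5.73e-08), and Tead2 changed by -0.38 (limma adjusted p = 2.85e-06). Tead4, named after its values were seen, changed by -0.36 with overlapping groups (limma adjusted p = 0.0178), and did not pass without GOF sample 1, WT sample 1 or WT sample 3 (limma adjusted p = 0.0502 to 0.067). Fos and its relatives also respond to the handling of tissue. Whether any of these factors took part in the keratin changes was not tested.

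**Figure D5:**
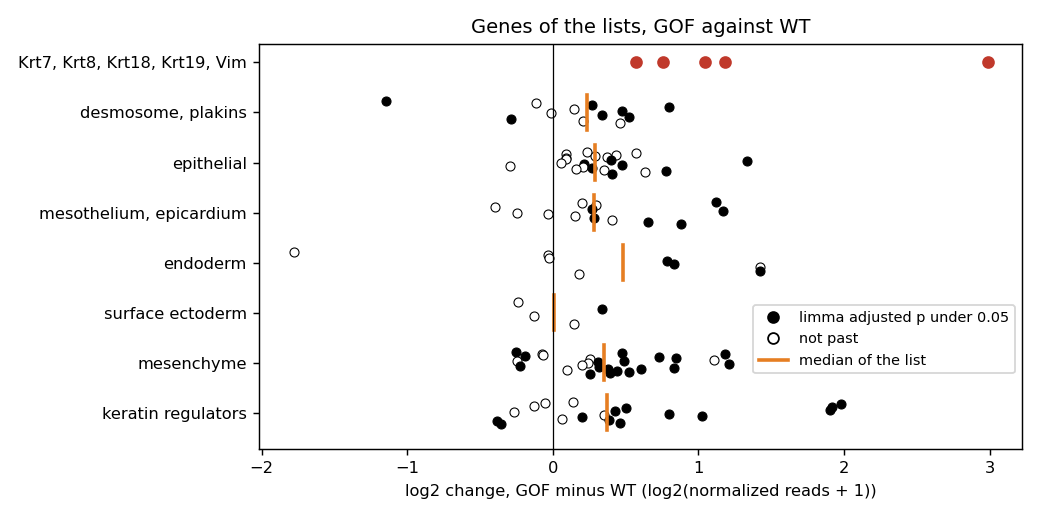
Log2 change between GOF and WT (x axis, log2(normalized reads + 1) scale) of the members (red) and of each gene of 7 lists, filled where the limma adjusted p is under 0.05, with the median of each list in orange. The medians run from 0.01 for surface ectoderm to 0.48 for endoderm, and the 5 members lie between 0.57 and 2.99.

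The genes with the sample profile most like each member were found by the root-mean-square distance of log2(value + 1) over the 8 samples, each gene centred on its mean, among 11122 genes with a mean of at least 5 normalized reads. For Krt18 the nearest of all was Krt8, at 0.10, and for Krt8 its partner Krt18 lay at the same distance. Closer to Krt8, at 0.0908, were Gm10409 and Gm3020, which had the same values as each other in every sample and cannot be told apart. Nearest to Krt19 were the carbonic anhydrase gene Car12 (0.0977), the collagen prolyl hydroxylase gene P4ha2 (0.106) and the lipoprotein receptor gene Vldlr (0.127), with log2 changes of 2.94 for Car12 and 3.02 for Vldlr. P4ha2 averaged 313 ± 15.3 in GOF and 38.5 ± 4.73 in WT (SD, n = 4 each). Car12 was at 28.7, 28.1, 30.2 and 28.5 normalized reads in GOF samples 1 to 4, and at 2.93, 2.67, 3.27 and 2.75 in WT samples 1 to 4. On the log2(value + 1) scale its groups lay about as far apart as those of Krt19. In normalized reads the ratio of means was 9.94 for Car12 and 8.04 for Krt19. Its coefficient of variation was 3.06% in GOF and 9.17% in WT, beside 10.4% in GOF and 8.93% in WT for Krt19. Nearest to Krt7 were Rtn1, a reticulon gene (0.0744), Tgfa, a growth factor gene (0.0792), and Mcam, an adhesion gene (0.0875). Each was lowest in sample 1 among GOF libraries, which a choice by likeness to the Krt7 profile favours. Nearest to Vim were Cdk19, Ift172 and Cd47, at 0.0373, 0.0373 and 0.0379. Among the members, Krt8 and Krt18 lay 0.10 apart, while Krt19 lay 0.918 or more from each of the others. The distances are descriptions over 8 samples and carry no test.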

How the data were processed

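Hearts of E9.5 embryos were profiled by RNA-seq in 4 GOF and 4 WT samples. Each deposited value is a signal, the read count of a gene after normalization by the authors. RSEM 1.2.3, cutadapt 1.6, CASAVA 1.8.2, FastQC and GRCm38 stand in the submitters' processing notes without role or order. How the authors normalized, annotated and filtered is not given in the sources used here. Multiplied by 1 scale per library, the values of all 8 columns came out whole within 0.01 after 0.5 was taken off (100% of values), which gave the depth. A stricter check of low values did not recover whole reads in 3 columns, so no count model was run.

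Values were analysed as log2(value + 1), which understates changes of low genes, with limma 3.58.1 in R 4.3.3 (eBayes with trend and robust prior, no covariate), two-sided, with Benjamini-Hochberg adjustment over all 13637 genes and a threshold of 0.05. The fit was tested on simulated data. Of the gene IDs 13554 matched a symbol, and coordinates are from GENCODE M21, promoter windows from RefSeq. The members and lists were chosen with earlier results of these data known. Named genes are the members, Bmp2, every keratin in the table, up to 6 genes of each list by smallest p, fixed defining markers, the 3 nearest profiles per member, and a few marked in the text as named after their values were seen. Other pseudocounts, filters, scalings, left-out samples and a replicate block were tried. No pair of samples of a group agreed within sampling noise (chi-square per degree of freedom 3.49 to 19.0).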

Additional observations from a re-analysis of the deposited data

Results flagged for a closer look

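Single samples far from the other 3 of their group, by the ratio of the gap to the range, were found in 8 of 186 groups of 4, or 4.3%. Chance alone flags about 1 in 20 where groups are independent. These groups are not, since they hold an identical gene pair, ratios of the same keratins and genes picked by profile. The share of flags therefore cannot be compared with that rate. No member was among them. Rtn1, nearest to Krt7 in profile, was at 5.94 in GOF sample 1 and between 9.90 and 10.03 in the other GOF samples. The identical pair Gm10409 and Gm3020 was at 9.08 in WT sample 1 and between 7.75 and 7.87 in the other WT samples. Afp was at 39.5 in WT sample 2 and between 1.33 and 6.21 in the other WT samples. Fosl2 was at 67.2 in GOF sample 3, against 52.2 to 54.8 in the other GOF samples. Among the genomic neighbours Atg101 was at 23.4 in GOF sample 3, Trdmt1 at 7.74 in GOF sample 3 and Hacd1 at 78.8 in WT sample 4.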

How the results depend on the processing

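All 5 members kept their direction under every alternative run. Log2 changes lay between 2.92 and 3.05 for Krt19, 1.12 and 1.32 for Krt18, 0.98 and 1.16 for Krt8, 0.64 and 0.92 for Krt7 and 0.50 and 0.59 for Vim, whose value of 0.50 came without mitochondrial genes at equal column totals (chosen after seeing the data). With samples left out 1 at a time the ranges were 2.93 to 3.05, 1.12 to 1.32, 0.99 to 1.15, 0.67 to 0.92 and 0.55 to 0.59 in the same order. The ratio of type I to type II keratins averaged 3.91 to 4.31 in GOF and 1.61 to 1.68 in WT with samples left out, and 1.52 in WT over the 4 simple keratins alone. Over all genes 3141 to 3877 were higher and 3388 to 4666 lower, with 3141 higher and 4666 lower at equal column totals. With samples left out the lower counts ranged from 0 to 1 for the other keratins and for mesothelium and from 1 to 2 for keratin regulators. Quantile normalization gave 1 lower keratin, Krt10 (limma adjusted p = 0.0245), 1 lower epithelial marker and 1 lower surface ectoderm marker (Grhl3, also called with no trend and no robust prior), and lost Esrp2 (limma adjusted p = 0.0878). The count of lower mesothelial genes was also 1 at equal column totals, with Epcam as covariate, and without both GOF 2 and WT 3, where 1 mesenchymal gene and 1 keratin regulator were lower. Upk3b lost its call at equal column totals (limma adjusted p = 0.0567) and Tcf21, Prrx2, Col5a1 and Tead4 without both libraries (limma adjusted p = 0.0735, 0.0574, 0.0658 and 0.128), while Shh passed with Epcam as covariate (1.35, limma adjusted p = 0.00218) and without both libraries (1.90, limma adjusted p = 0.000137), and Tbx18 with Epcam as covariate (0.17, limma adjusted p = 0.0328). The causes were not tested. The uncalled change of Krt20 was -0.0053 with quantile normalization and -0.0034 to 0.11 with samples left out 1 at a time. That of Epcam was -0.055 with quantile normalization and -0.39 to 0.58 with samples left out, and below 0 without GOF sample 1 (-0.12), GOF sample 3 (-0.14) or WT sample 3 (-0.39). Samples with the same number did not deviate together (correlations of their deviations -0.137 to 0.00674), so the number was not taken as a pairing. With it as a replicate block 3678 genes were higher and 3677 lower, 1 mesothelial gene (Lrrn4, limma adjusted p = 0.00488) and 1 endoderm gene (Afp, limma adjusted p = 0.0291) were lower, Col5a1 did not pass (limma adjusted p = 0.0618), and Plec (limma adjusted p = 0.0205) and Tbx18 (limma adjusted p = 0.0283) passed. Krt7 rests on at most 188 reads a library. Among low markers Cdh1 had 0 reads in WT sample 3, and Shh in GOF sample 2, WT sample 2 and WT sample 3. Changes of such low genes, Krt7 included, are imprecise.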
